A study of Mus musculus with 10 samples.

Results

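The piRNA pathway and germ granule genes *Piwil2*, *Mael*, *Tdrd1*, *Tdrd9*, *Mov10l1*, *Asz1*, *Pld6*, *Tex19.1*, *Stk31* and *Ddx4* were followed by RNA-Seq in murine embryonic stem cells (mESCs). The members were taken as a fixed list of symbols, and all 10 of them are among the 20325 genes measured. The study asked how the histone chaperone DAXX and its cargo, the histone variant H3.3, affect transcription in mESCs. PolyA RNA was sequenced from 5 lines with 2 libraries each, all kept without feeder cells in 2i and LIF medium. The *Daxx*-/- line (strain 129/SvEv) was measured as it is and with a lentiviral transgene of FLAG-tagged wild-type (WT) mouse DAXX, and the latter is called DAXX-rescued here. The H3.3 KO line (strain 129 x C57BL/6J) was measured as it is, with a lentiviral transgene of tagged WT H3.3 (WT H3.3-rescued), and with the H3.3 mutant that the labels spell L126A-L130A and the text of the study spells L126A-I130A. This mutant was designed to keep its binding to DAXX without being stably built into nucleosomes. All transgenes were driven by the EF1 promoter, which is active in most cell types, so their RNA level need not be that of the endogenous genes. Transduced cells were selected with puromycin, a step the study does not describe for the KO lines. Against a KO line, the transgene therefore cannot be told apart from transduction and selection. By immunoblot, the study found DAXX protein to be equal in WT mESCs and in *Daxx*-/- mESCs that carry the WT transgene. It also found DAXX protein strongly reduced in H3.3 KO mESCs and stabilized there by both WT H3.3 and the mutant. The H3.3 comparisons against the KO line thus change DAXX protein as well. The KO lines differ in strain as well as in genotype, and these cannot be told apart in any contrast between them.

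The piRNA pathway guards the germline against transposons: small RNAs of the Piwi class guide Piwi proteins to transposon transcripts, which are cut, and to transposon loci, which become methylated in the fetal testis. Its proteins gather in germ granules, the cytoplasmic bodies around mitochondria and the nucleus where precursor RNAs are processed, and Tudor-domain proteins hold them together by binding methylated arginines of the Piwi proteins. Many genes of the pathway carry CpG-rich promoters that are methylated and silent in somatic tissues, whereas mESCs in 2i medium have little DNA methylation and transcribe some of them at a low level. Repressors that bind E-boxes and E2F sites are known to hold germline genes down in mESCs.

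Most of the genes with a promoter window shared an E-box, CACGTG. RefSeq windows (GRCm38.p6) from 250 bases before to 50 bases after an annotated start were given for 9 of the 10 genes, in 13 windows; *Piwil2* had none in the table used. CACGTG, which reads the same on both strands, was found in 9 of the 13 windows and in 7 of the 9 genes, against 7.15% of all 32851 windows. That share comes from windows not matched for CpG, and the E-box itself holds a CpG. The sites are printed because they are what the promoters of these 7 genes share, each as the 30 bases around the E-box where the window allowed it, read 5′ to 3′ along the gene with the E-box in capitals.
Mael chr1:166238950-166238979 (minus strand): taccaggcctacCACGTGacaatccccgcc
Stk31 chr6:49395472-49395501 (plus strand): aggccggccaccCACGTGaccagggctgcg
Pld6 chr11:59787673-59787702 (minus strand): ggggcgggctggCACGTGttgggcgcgcaa
Tdrd9 chr12:111971382-111971411 (plus strand): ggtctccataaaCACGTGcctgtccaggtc
Tdrd9 chr12:111971452-111971481 (plus strand): gcacgaggctccCACGTGcatgcagggcct
Ddx4 chr13:112652322-112652351 (minus strand): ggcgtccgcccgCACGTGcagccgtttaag
Mov10l1 chr15:88982744-88982765 (plus strand): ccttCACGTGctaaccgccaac
Tdrd1 chr19:56826186-56826215 (plus strand): tggggctgcgcgCACGTGggagtaaactgc
A match to these letters is a description of the sequence and not a measured binding site. Of the other motifs searched on both strands, TCCCGC, the core of E2F sites, lay in 3 of the 13 windows against 20.0% of all windows. These windows belong to *Mael*, *Tex19.1* and *Ddx4*. CCAAT was present in 5 of the 13 windows (5 genes) against 37.4%, and GGGCGG in 8 of the 13 (6 genes) against 35.7%. TCCCGC and CCAAT were thus near the share of all windows. TCCCGC and GGGCGG can share no more than 1 end base with the E-box and CCAAT none, and windows of 1 gene can overlap each other.

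*Stk31* and *Asz1*, which were differentially expressed (DE) in the comparisons described here, differed in this respect. The bases that precede the outermost annotated start of each, which for *Stk31* is the start of the RefSeq gene at 49395506 and for *Asz1* its start at 18109061, are shown to allow the comparison, with CACGTG and TCCCGC in capitals where present.
Stk31 chr6:49395289-49395505 (plus strand): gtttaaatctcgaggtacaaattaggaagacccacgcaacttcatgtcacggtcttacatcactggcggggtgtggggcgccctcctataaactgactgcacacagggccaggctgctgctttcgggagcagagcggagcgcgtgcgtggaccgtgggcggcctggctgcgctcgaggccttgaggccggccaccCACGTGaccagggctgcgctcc
Asz1 chr6:18109062-18109311 (minus strand): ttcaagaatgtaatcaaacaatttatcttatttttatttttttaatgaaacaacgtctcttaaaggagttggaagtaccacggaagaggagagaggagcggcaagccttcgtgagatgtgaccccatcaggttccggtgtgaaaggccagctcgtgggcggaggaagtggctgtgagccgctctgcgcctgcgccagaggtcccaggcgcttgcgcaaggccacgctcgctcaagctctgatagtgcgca
The stretch before *Stk31* holds 1 E-box, and the one before *Asz1* holds neither motif. Both are rich in CpG, with an observed over expected ratio of 0.788 for *Stk31* and 0.901 for *Asz1* in the bases shown. In the full windows of the 9 genes the ratio ranged from 0.216 in the third *Tdrd1* window to 0.978 for *Ddx4*, and the median of all windows was 0.384.

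**Figure D1:**
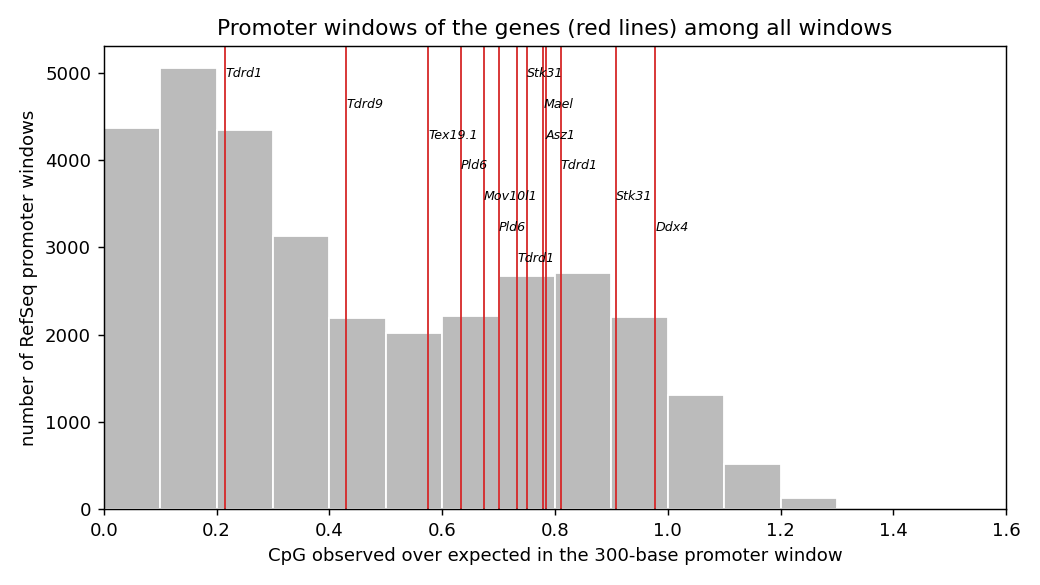
Number of RefSeq promoter windows (y axis) by CpG observed over expected (x axis, no unit). Grey bars stand for all 32851 windows and red lines for the 13 windows of the genes; 12 of the 13 lie above the median of 0.384, and the exception is a *Tdrd1* window at 0.216.

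Each library held between 15463625 and 21396585 expected counts, with a median of 17362425.5. Levels are given as CPM, the count scaled to a common library total. The labels were checked on the targeted genes: *Daxx* was measured at 82.5 and 72.8 CPM in *Daxx*-/- mESCs and at 206 CPM in both DAXX-rescued libraries, and *H3f3a*, an H3.3 gene, lay between 2.84 and 10.9 CPM in the H3.3 KO lines against 381 to 494 CPM in the *Daxx* lines. The level of *Daxx* in *Daxx*-/- mESCs was within the range of the H3.3 lines (59.3 to 101 CPM), so it does not show the loss of the gene. *H3f3b*, the other H3.3 gene, was at 509 and 720 CPM in H3.3 KO mESCs, at 204 and 139 CPM with WT H3.3, at 386 and 324 CPM with the mutant, at 313 and 380 CPM in *Daxx*-/- and at 116 and 84.3 CPM in DAXX-rescued mESCs, and thus goes against a loss of its transcript in the H3.3 KO line. The deleted parts of both genes are not given in the sources used here, and counts per gene separate neither a deleted part nor a transgene. Lines are therefore named as labelled, and every direction given rests on these labels. All 10 markers of naive pluripotency fixed for the labelled cell type were above 1 CPM in every library. P-values measure only the spread between the deposited libraries, which the study calls biological replicates without describing how the cultures were kept apart.

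All 10 genes passed the filter of at least 1 CPM in at least 2 libraries, and 7 of them were above 1 CPM in all 10 libraries. The exceptions were *Tdrd1* (8 libraries), *Tdrd9* (6 libraries) and *Asz1* (5 libraries). For the filter and these counts of libraries, CPM was taken on the library total without the scaling factor. On that scale *Tdrd1* in replicate 1 of the *Daxx*-/- line (19 counts) was below 1 CPM, while its scaled level was 1.05 CPM. Per kilobase of transcript, *Tex19.1* had the highest median level over the 10 libraries, 88.2 CPM per kb. *Pld6*, *Mael*, *Stk31*, *Ddx4*, *Piwil2* and *Mov10l1* followed between 9.93 and 3.20 CPM per kb, and *Asz1*, *Tdrd1* and *Tdrd9* were at 0.526, 0.432 and 0.240 CPM per kb. The ranges of neighbours in this order overlapped throughout, *Tex19.1* (19.6 to 173 CPM per kb) and *Pld6* (4.96 to 28.5 CPM per kb) included.

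*Stk31* encodes a protein with a Tudor domain and a kinase-like domain that is found in germ cells. It lies on chromosome 6 (49395604 to 49469501, plus strand, GENCODE annotation of GRCm38). It was measured at 65.0 and 54.7 CPM in *Daxx*-/- mESCs and at 25.2 and 32.3 CPM in DAXX-rescued mESCs. In the H3.3 KO line it was at 21.5 and 23.1 CPM, with WT H3.3 at 22.7 and 24.9 CPM, and with L126A-L130A at 9.10 and 8.92 CPM. The *Daxx*-/- libraries thus held the highest levels and the mutant libraries the lowest, and neither overlapped any other line.

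Next come *Asz1* and *Pld6*, whose products sit on the mitochondrial surface. *Asz1* (chromosome 6, 18050964 to 18109061, minus strand) encodes GASZ, a scaffold of the granules between mitochondria. It was at 6.37 and 7.70 CPM in *Daxx*-/- mESCs, at 0.693 and 1.85 CPM in DAXX-rescued mESCs, at 1.13 and 2.05 CPM in H3.3 KO mESCs and at 0.254 and 0.580 CPM with WT H3.3. No *Asz1* count was recorded in either mutant library, whereas the H3.3 KO libraries held 20 and 33 counts. *Pld6* (chromosome 11, 59783897 to 59787645, minus strand) encodes the mitochondrial phospholipase D family member that acts as an endonuclease on piRNA precursors. It was at 13.0 and 27.0 CPM in *Daxx*-/- mESCs and at 11.0 and 12.7 CPM with DAXX. Its levels in the H3.3 KO line were 7.25 and 6.21 CPM, against 8.32 and 10.5 CPM with WT H3.3 and 5.46 and 4.70 CPM with L126A-L130A. The mutant libraries were the lowest of the 10 for both genes.

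*Piwil2* (chromosome 14, 70372477 to 70429383, minus strand) encodes MILI, a Piwi protein that binds piRNAs and slices transposon RNA. It was at 7.15 and 23.1 CPM in *Daxx*-/- and at 6.93 and 13.3 CPM in DAXX-rescued mESCs. In the H3.3 lines it was at 39.2 and 36.3 CPM without a transgene, at 22.3 and 41.2 CPM with WT H3.3, and at 10.5 and 18.8 CPM with L126A-L130A. Only the mutant libraries stood below the rest among the H3.3 lines. *Mov10l1* (chromosome 15, 88982909 to 89055152, plus strand) encodes the RNA helicase that feeds precursor transcripts into piRNA processing. Its *Daxx*-/- libraries were far apart, at 13.5 and 42.2 CPM, and the DAXX-rescued ones were at 13.2 and 18.2 CPM. The H3.3 KO and WT H3.3-rescued libraries overlapped, at 11.6 and 13.7 CPM and at 11.0 and 13.2 CPM, and those of the mutant were lower, at 2.63 and 9.19 CPM.

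The Tudor proteins TDRD1, a partner of MILI, and TDRD9, a helicase that acts with the nuclear Piwi protein, were encoded by the genes with the lowest median levels per kilobase. *Tdrd1* (chromosome 19, 56826209 to 56870012, plus strand) was at 1.05 and 4.27 CPM in *Daxx*-/- and at 3.91 and 3.31 CPM in DAXX-rescued mESCs. In the H3.3 KO line it was at 1.59 and 1.55 CPM, with WT H3.3 at 2.35 and 2.73 CPM and with the mutant at 0.607 and 2.13 CPM. The mutant libraries lay on either side of the H3.3 KO libraries. *Tdrd9* (chromosome 12, 111971559 to 112068854, plus strand) was at 0.388 and 2.44 CPM in *Daxx*-/- and at 0.347 and 1.07 CPM in DAXX-rescued mESCs. Its levels were 1.25 and 2.67 CPM in the H3.3 KO line, 1.27 and 1.51 CPM with WT H3.3 and 0.202 and 0.766 CPM with L126A-L130A. For both genes the means of the lines lay closer together than the libraries of the *Daxx*-/- line did.

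*Mael* (chromosome 1, 166201201 to 166238747, minus strand) encodes Maelstrom, an HMG-box protein of the granules that is needed for transposon silencing. It was at 16.2 and 38.4 CPM in *Daxx*-/- mESCs and at 12.3 and 16.3 CPM with DAXX. The H3.3 KO libraries, at 34.8 and 36.4 CPM, were above those with WT H3.3, at 14.7 and 14.3 CPM, and above those with the mutant, at 3.24 and 13.6 CPM. *Ddx4* (chromosome 13, 112598333 to 112652475, minus strand) encodes VASA, the RNA helicase that marks germ cells. It was at 8.87 and 15.2 CPM in *Daxx*-/- mESCs, at 16.6 and 13.9 CPM with DAXX, at 26.0 and 16.2 CPM in H3.3 KO mESCs, at 23.7 and 13.4 CPM with WT H3.3 and at 11.4 and 13.3 CPM with the mutant. For *Ddx4* the gap between the mutant and the WT H3.3-rescued libraries was smaller than the spread within the latter.

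*Tex19.1* (chromosome 11, 121146143 to 121148319, plus strand) encodes a mammalian protein of germ cells, placenta and pluripotent cells that restrains transposons. It was at 301 and 151 CPM in *Daxx*-/- mESCs and at 239 and 171 CPM with DAXX, so these lines overlapped. The H3.3 lines were ordered without overlap, from 178 and 157 CPM in the KO line through 116 and 96.6 CPM with WT H3.3 to 34.2 and 69.0 CPM with L126A-L130A. Its paralog *Tex19.2* is in the table too, and reads could have been divided between the paralogs by RSEM. *Tdrd9* overlaps the protein-coding gene *Rd3l* on the opposite strand, *Piwil2* and *Mov10l1* overlap small noncoding RNA genes, and *Stk31* overlaps a pseudogene. None of these is in the table under its current symbol, and older symbols were not searched.

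**Figure D2:**
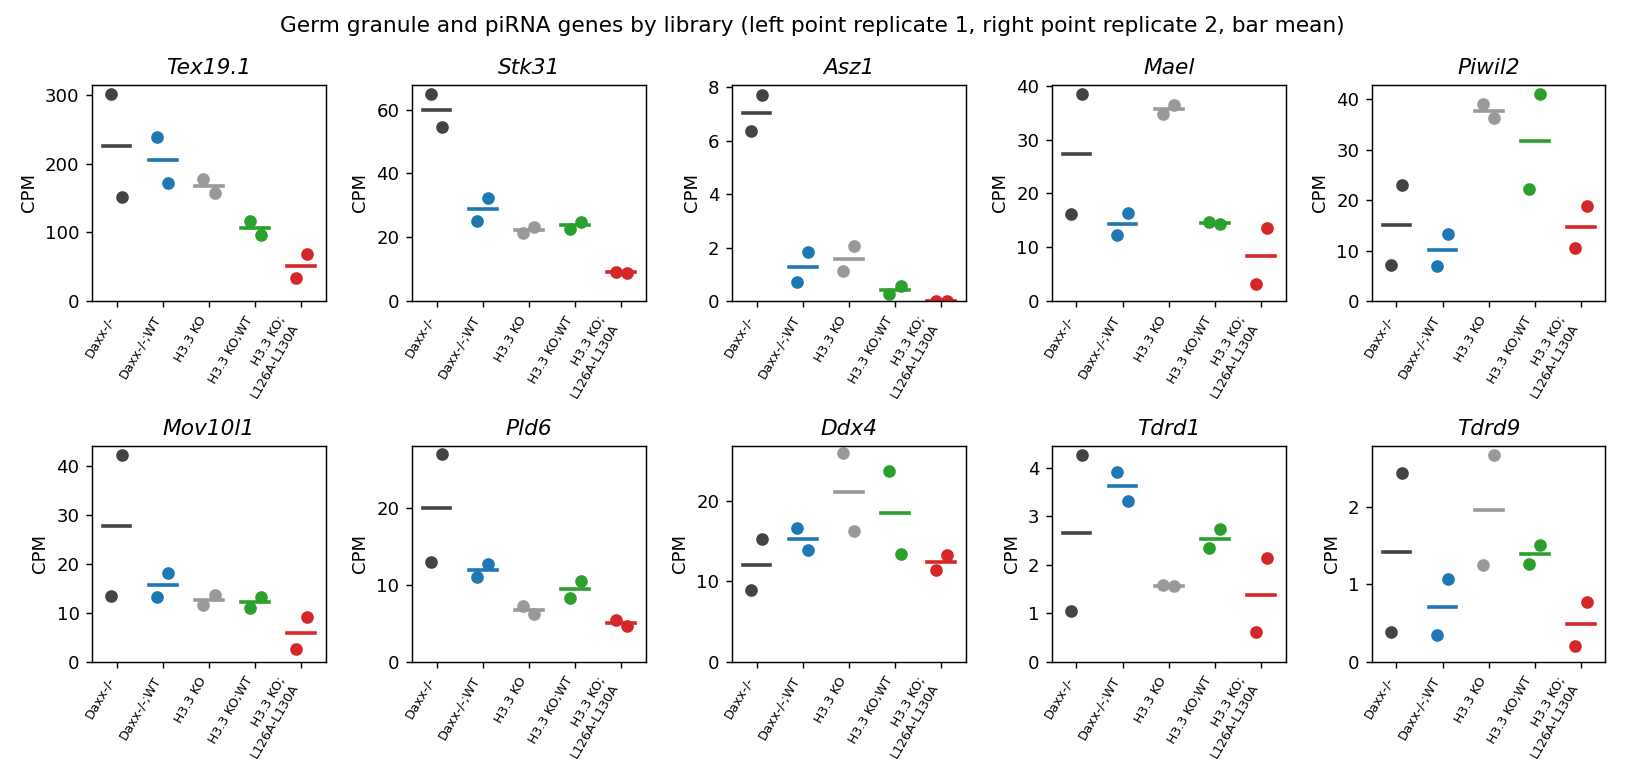
Level of each gene in CPM (y axes, linear and from 0) in the 5 lines (x axes, WT after a line's name marking its WT transgene), with replicate 1 as the left point, replicate 2 as the right point and the mean as a bar. *Stk31* in the mutant line sits at 9.10 and 8.92 CPM, below every other line, and *Asz1* is at 0 in both mutant libraries.

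DAXX re-expression was the first comparison, and 1 of the 10 genes was DE in it. *Stk31* decreased from 59.8 ± 7.26 CPM (SD, n = 2) in *Daxx*-/- to 28.7 ± 5.02 CPM (SD, n = 2) in DAXX-rescued mESCs, a log2 fold change of -1.06 with a standard error of 0.18 (edgeR quasi-likelihood test, adjusted p = 0.0297). A gene was called DE where it changed at least 2-fold with a p, adjusted after Benjamini and Hochberg over all 13201 genes tested, under 0.05; this held for 1.08% of them, 0.795% being lower. *Asz1* had a larger change with a larger error, a log2 fold change of -2.47 with a standard error of 0.60, and did not pass (edgeR, adjusted p = 0.0793), although its *Daxx*-/- libraries were both above both DAXX-rescued ones. DESeq2 and limma on log2(CPM + 1) called *Asz1* as well as *Stk31*, and edgeR on the compared lines alone called neither. In the edgeR fit of all 10 libraries, *Stk31* and *Asz1* were the members with an unadjusted p under 0.05, a level reached by 21.8% of all genes tested. In bulk RNA a lower level in each cell and fewer cells that express a gene cannot be told apart.

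None of the other 8 genes passed the test. Their log2 fold changes ran from -1.01 for *Tdrd9* to 0.44 for *Tdrd1*, with *Mael* at -0.94, *Mov10l1* at -0.83, *Pld6* at -0.75, *Piwil2* at -0.58, *Tex19.1* at -0.14 and *Ddx4* at 0.34. Over the 10 genes the median log2 fold change was -0.79, with 8 of the 10 below 0. Over all genes tested the median was -0.02, with 52% below 0. Both DAXX-rescued libraries were below both *Daxx*-/- libraries for 3 genes (*Stk31*, *Asz1* and *Pld6*), while this held for 24.7% of all genes. The median of the 10 genes rested on replicate 2 of the *Daxx*-/- line. Without that library it was 0.04, with 5 genes below 0 and 5 above, and without replicate 1 of the line it was -1.19. Without replicate 1, *Asz1* and *Pld6* were DE and *Stk31*, at -0.93, fell short of 2-fold. *Stk31* was also not DE when replicate 2 of the *Daxx*-/- line or any single DAXX-rescued, H3.3 KO or WT H3.3-rescued library was left out, the H3.3 lines entering through the shared estimate of the spread. Its log2 fold change lay between -1.25 and -0.89 when a library of the compared lines was left out.

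WT H3.3 re-expression gave no DE gene among the 10 with the edgeR quasi-likelihood test, while 0.25% of all genes were DE. DESeq2 and limma called 0 as well. *Mael* and *Asz1* had an unadjusted p under 0.05, as had 13.3% of all genes. *Mael* was at 35.6 ± 1.14 CPM (SD, n = 2) in H3.3 KO and at 14.5 ± 0.271 CPM (SD, n = 2) in WT H3.3-rescued mESCs, with a log2 fold change of -1.30 and a standard error of 0.57 (edgeR, adjusted p = 0.366). For *Asz1* the log2 fold change was -1.90 with a standard error of 0.67 (edgeR, adjusted p = 0.285). *Stk31* was at 0.09 with a standard error of 0.18 (edgeR, adjusted p = 0.869). The median over the 10 genes was -0.22, with 7 below 0, beside 0.02 over all genes, of which 48.1% were below 0. Both WT H3.3-rescued libraries were lower than both KO libraries for *Mael*, *Asz1* and *Tex19.1*, and both were higher for *Tdrd1* and *Pld6*, while 26.7% of all genes were lower and 29.3% higher in this sense.

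In the comparison of L126A-L130A with H3.3 KO mESCs, 2 of the 10 genes were DE, both lower with the mutant, while 0.788% of all genes were DE and 0.606% were lower. *Stk31* decreased from 22.3 ± 1.19 CPM (SD, n = 2) to 9.01 ± 0.129 CPM (SD, n = 2), a log2 fold change of -1.31 with a standard error of 0.18 (edgeR quasi-likelihood test, adjusted p = 0.0212). *Asz1* was at 1.59 ± 0.647 CPM (SD, n = 2) in the KO line and at 0 in both mutant libraries, hence at least 8.68-fold lower when the mutant is set to a floor of 3 counts per library (edgeR, adjusted p = 0.0385). *Tex19.1* was at 168 ± 15.0 CPM (SD, n = 2) and 51.6 ± 24.6 CPM (SD, n = 2). Its log2 fold change of -1.70 with a standard error of 0.38 did not pass (edgeR, adjusted p = 0.0725), nor did that of *Mael*, -2.07 with a standard error of 0.58 (edgeR, adjusted p = 0.125). DESeq2 called both.

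All 10 genes had a log2 fold change below 0 in this comparison, as had 46.8% of all genes tested. *Piwil2* was at -1.36, *Tdrd9* at -1.96, *Mov10l1* at -1.09, *Ddx4* at -0.77, *Pld6* at -0.41 and *Tdrd1* at -0.18, and none of these passed. The median was -1.33, the same with *Asz1* at its bound, beside 0.03 over all genes tested. Both mutant libraries were below both KO libraries for 9 genes, *Tdrd1* being the exception, while 24.2% of all genes were. An unadjusted p under 0.05 was reached by 5 genes (*Piwil2*, *Mael*, *Asz1*, *Tex19.1* and *Stk31*) and by 16.9% of all genes. Replicate 1 of the mutant line was lower than replicate 2 for 7 of the 10 genes, beside 50.8% of all genes tested. The median log2 fold change was -1.14 without replicate 1 and -2.05 without replicate 2. Without replicate 1 no member was DE, and without replicate 2 *Mael* and *Tex19.1* were DE in place of *Stk31* and *Asz1*. When the libraries of the H3.3 KO and WT H3.3-rescued lines were left out one at a time, no member was DE in any of these fits. *Asz1* was not DE without either 1 of the DAXX-rescued libraries, and *Tex19.1* was DE as well without either 1 of the *Daxx*-/- libraries. The log2 fold change of *Stk31* stayed between -1.36 and -1.25 when a library of the compared lines was left out.

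The mutant was then set against WT H3.3 in the same KO line, and here 1 of the 10 genes was DE, and lower, while 0.515% of all genes were DE and 0.265% were lower. *Stk31* was at 23.8 ± 1.54 CPM (SD, n = 2) with WT H3.3, and the log2 fold change of the mutant was -1.40 with a standard error of 0.18 (edgeR quasi-likelihood test, adjusted p = 0.0234). *Asz1* was at least 2.28-fold lower, from 4 and 10 counts to 0, and did not pass (edgeR, adjusted p = 0.145). For the other 8 genes the log2 fold changes ran from -1.47 for *Tdrd9* to -0.59 for *Ddx4*, among them *Piwil2* at -1.11, *Tex19.1* at -1.04, *Mov10l1* at -1.03 and *Pld6* at -0.89. Both mutant libraries were below both WT H3.3-rescued libraries for all 10 genes, and 23.2% of all genes tested met the same criterion. The median was -1.03, also with *Asz1* at its bound, beside 0.00 over all genes. An unadjusted p under 0.05 was found for 4 genes (*Asz1*, *Pld6*, *Tex19.1* and *Stk31*) and for 12.3% of all genes. The median was -0.69 without replicate 1 and -1.84 without replicate 2 of the mutant line. *Stk31* was not DE when any single library of these lines or replicate 1 of the H3.3 KO line was left out. Its log2 fold change lay between -1.46 and -1.33 without a library of the compared lines.

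**Figure D3:**
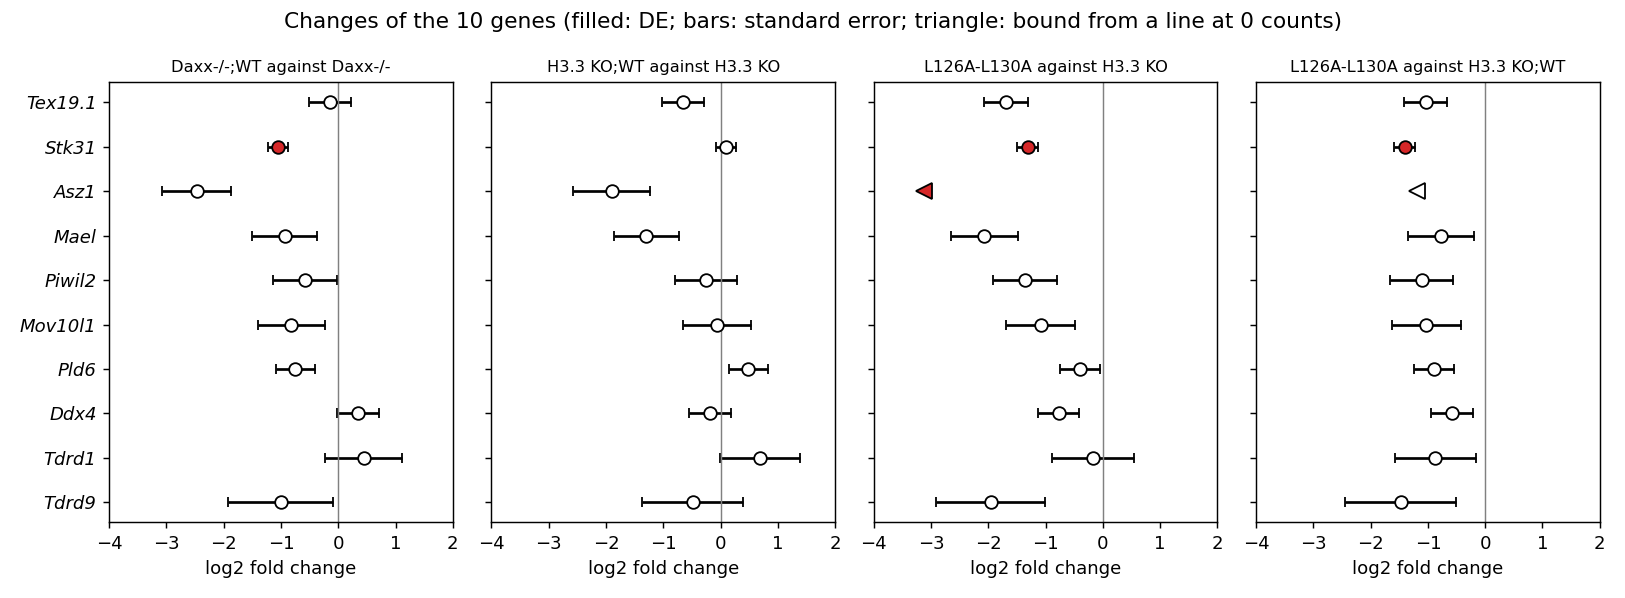
Log2 fold change (x axes) of each gene (y axis) in the 4 comparisons, with the standard error as a bar, DE genes filled, and a triangle for *Asz1* where the mutant line had no count and the value is a bound. *Stk31* is filled in 3 panels, at -1.06, -1.31 and -1.40, and sits at 0.09 with WT H3.3.

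The comparisons with the H3.3 KO line share its libraries, as do both comparisons of the mutant, so their values are given side by side and not correlated. *Stk31* was DE with DAXX and with the mutant and not with WT H3.3. Whether such changes differ was tested by contrasts of the changes themselves. Between DAXX and WT H3.3 no member was DE by the edgeR quasi-likelihood test (0.0455% of all genes were), with 2 genes, *Stk31* and *Pld6*, at an unadjusted p under 0.05, reached by 13.9% of all genes. The difference was -1.15 with a standard error of 0.25 for *Stk31* (edgeR, adjusted p = 0.16), which DESeq2 called and limma did not, and -1.24 with a standard error of 0.48 for *Pld6* (edgeR, adjusted p = 0.31). Between DAXX and L126A-L130A again 0 members were DE with edgeR, DESeq2 and limma, against 0.0227% of all genes with edgeR, and *Asz1* and *Tex19.1* had an unadjusted p under 0.05, as had 11.2% of all genes. These contrasts cross the strains.

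Replicates of a line differed more, in the median, for these genes than for all genes tested. On the scale of log2(CPM + 1), the median absolute difference between replicates was 1.10 for the 10 genes and 0.364 for all genes tested in *Daxx*-/- mESCs, and 0.669 against 0.267 in the mutant line. It was smaller in the H3.3 KO line, 0.188 against 0.176, with 0.407 against 0.217 in DAXX-rescued and 0.251 against 0.159 in WT H3.3-rescued mESCs. Replicate 1 was the lower library for 8 of the 10 genes in *Daxx*-/- mESCs, where *Tex19.1* and *Stk31* went the other way. It was lower for 7 each in the DAXX-rescued, WT H3.3-rescued and mutant lines and for 5 in the H3.3 KO line. Of all genes tested it was lower for 48.6%, 49%, 49.6%, 50.8% and 50% in these lines, in the order given. All genes tested were not matched to the 10 genes for level. *Mael* had the largest difference of the 10 genes in the mutant line, 1.78, and *Mov10l1* in the *Daxx*-/- line, 1.58.

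**Figure D4:**
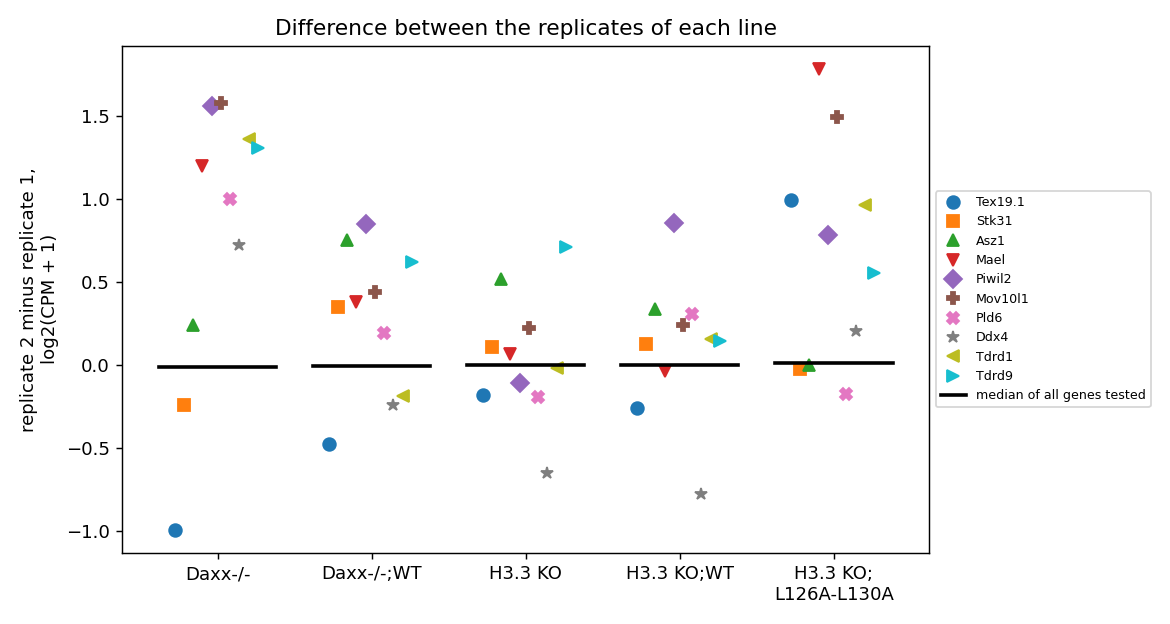
Replicate 2 minus replicate 1 in log2(CPM + 1) (y axis) for each of the 10 genes in the 5 lines (x axis), with the median of all genes tested as a bar near 0. In *Daxx*-/- mESCs 8 of the 10 genes lie above 0, and *Tex19.1* and *Stk31* lie at -0.99 and -0.24.

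Levels of the genes moved together in part. Pearson's r of log2(CPM + 1) over the 10 libraries, which come from only 5 lines, was above 0 for 38 of the 45 pairs, with a median of 0.411 and a range from -0.255 (*Asz1* and *Ddx4*) to 0.902 (*Asz1* and *Stk31*). Among all genes tested, the patterns most like that of *Stk31* were those of *Nlrp4c* (r = 0.982), *Nxf3* (r = 0.967) and *Rps6ka3* (r = 0.964). For *Asz1* they were *Dnajc5g* (r = 0.982), *Ushbp1* (r = 0.978) and *Xlr4b* (r = 0.976). These values describe 10 libraries, carry no test and were not set beside those of pairs drawn from all genes tested.

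Markers of other cell states moved with the lines too. The summed level of 11 markers of meiotic and later germ cells was between 30.0 and 58.9 CPM in the mutant libraries, 86.9 and 130 CPM with WT H3.3 and 207 and 350 CPM in the H3.3 KO line. It was 120 to 163 CPM in *Daxx*-/- and 53.9 to 75.2 CPM in DAXX-rescued mESCs. Of the 11 markers, *Spo11*, *Tnp1*, *Tnp2*, *Prm1*, *Prm2* and *Acrv1* were below 1 CPM in every library, and 4 were above it in every library. These 4 were *Dazl* (6.00 to 245 CPM), *Sycp3* (3.10 to 55.2 CPM), *Sycp1* (6.94 to 44.3 CPM) and *Dmc1* (9.59 to 25.3 CPM). *Stra8* ran from 0 to 17.5 CPM. For 6 markers of two-cell-like cells the sum was 5.12 to 61.9 CPM with the mutant, 201 to 312 CPM with WT H3.3, 193 to 299 CPM in the H3.3 KO line, 28.1 to 70.8 CPM in *Daxx*-/- and 14.8 to 99.0 CPM in DAXX-rescued mESCs. Fibroblast markers, with *Vim* as the most abundant, went the other way: their sum was 87.4 to 173 CPM in *Daxx*-/- and 331 to 631 CPM in DAXX-rescued mESCs, and it was 106 to 151 CPM in the H3.3 KO line, 95.7 to 131 CPM with WT H3.3 and 203 to 510 CPM with the mutant. It was thus higher, without overlap, with DAXX and with the mutant, the lines in which *Stk31* was lower. The highest sum was mostly *Vim*, which reached 618 CPM. Of the collagen genes in the list, *Col1a2* and *Col3a1* were below 1 CPM in every library, while *Col1a1* ran from 0.495 to 4.43 CPM. The 4 primordial germ cell markers summed to 190 to 196 CPM in *Daxx*-/- and 284 to 311 CPM in DAXX-rescued mESCs, and to 202 to 261 CPM in the H3.3 KO line, 273 to 311 CPM with WT H3.3 and 192 to 303 CPM with the mutant. Both rescued lines were above their KO line, and the mutant line overlapped both other H3.3 lines. Primitive endoderm markers summed to between 4.16 and 18.7 CPM over all libraries. The part of all these markers in the results on the 10 genes was not tested.

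To place the 10 genes in the pathway, a list of 29 further piRNA and germ granule genes was examined, of which 28 were in the table and 24 could be tested. With the edgeR quasi-likelihood test 0 were DE with DAXX and in both comparisons of the mutant, and 1 was DE, lower, with WT H3.3. DESeq2 called 3 with DAXX, 1 with WT H3.3, 3 with the mutant against the KO line and 4 against WT H3.3, while it called 4.02%, 1.61%, 3.36% and 2.45% of all genes. Limma on log2(CPM + 1) called 2, 1, 1 and 0, and 1.82%, 0.417%, 1.31% and 0.727% of all genes. At an unadjusted p under 0.05 the counts were 8 with DAXX, 3 with WT H3.3, 9 with the mutant against the KO line and 8 with the mutant against WT H3.3, beside 21.8%, 13.3%, 16.9% and 12.3% of all genes, so that the 3 of 24 with WT H3.3 were near the background. The DE gene was *Tex15*, whose product is needed for piRNA-directed methylation, at 26.8 and 22.4 CPM in the H3.3 KO line and 10.6 and 8.53 CPM with WT H3.3, a log2 fold change of -1.36 with a standard error of 0.19 (edgeR quasi-likelihood test, adjusted p = 0.0332). It was at 18.3 and 20.3 CPM with the mutant, between the other H3.3 lines.

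The 4 further genes with the highest mean level were *Wdr77* and *Prmt5* (221 and 207 CPM), which form the arginine methyltransferase that modifies Piwi proteins and many others, *Morc1* (193 CPM), a germline repressor of transposons, and *Rnf17* (116 CPM), a Tudor protein. *Morc1* was at 203 and 201 CPM in *Daxx*-/- and at 116 and 135 CPM in DAXX-rescued mESCs. Its log2 fold change of -0.69 passed the adjusted p but not the fold threshold (edgeR, adjusted p = 0.042). Over the 24 genes the median log2 fold change was -0.17 with DAXX, 0.06 with WT H3.3, -0.36 with the mutant against the KO line and -0.27 against WT H3.3. In the same order 14, 11, 17 and 17 genes were below 0, beside 52%, 48.1%, 46.8% and 49.6% of all genes tested. The 14 with DAXX and the 11 with WT H3.3 were thus near the share of all genes.

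**Figure D5:**
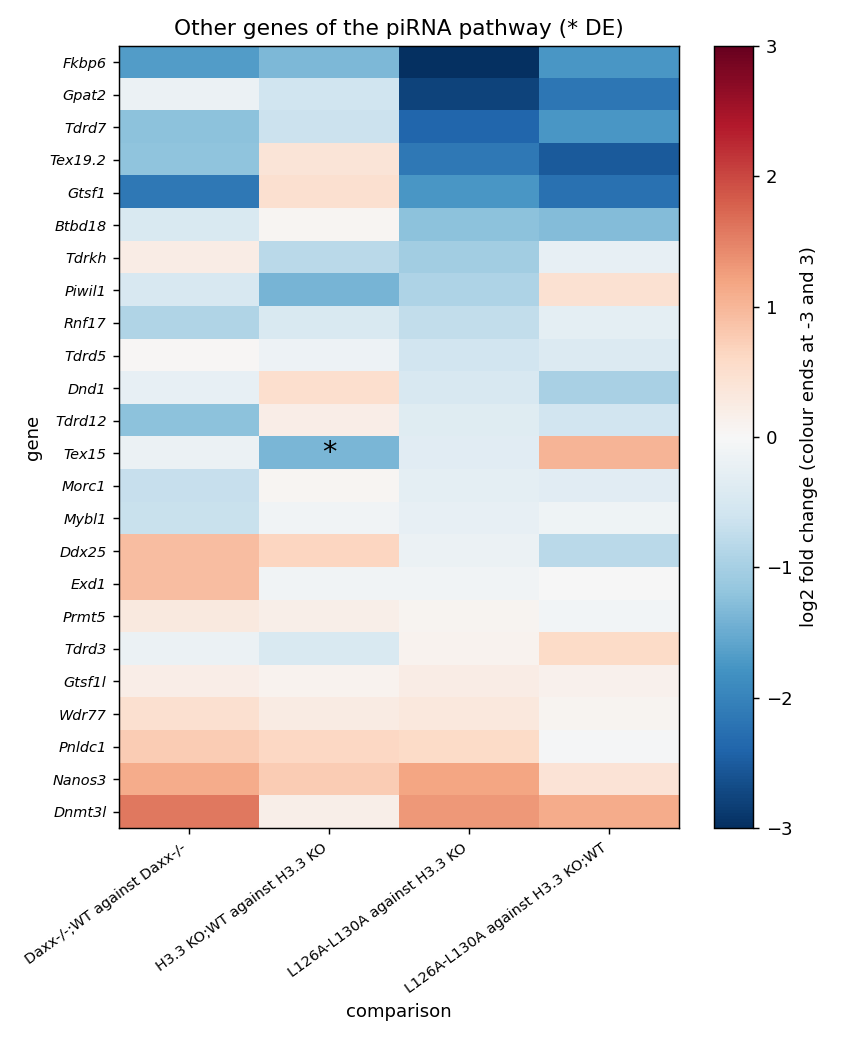
Log2 fold change (colour, ends at -3 and 3) of the 24 further piRNA pathway genes tested (rows) in the 4 comparisons (columns), with an asterisk for DE. Only *Tex15* with WT H3.3, at -1.36, carries one.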

How the data were processed

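PolyA RNA-Seq libraries of 5 mESC lines with 2 libraries each were analysed, grouped by the genotype and title in their labels. Per the study's methods and the submitters' processing notes, the authors aligned reads with Bowtie to mm9 and estimated expression with RSEM. The deposited values are named TPM, but they are expected counts: columns have unequal totals (15463625 to 21396585), and 61.4% to 67.6% of the values are whole. Strand was not stated to be used. They were rounded, scaled by median-of-ratios factors (0.936 to 1.04) and tested with edgeR 4.0.16 in R 4.3.3, with all 10 libraries in one quasi-likelihood fit over the 13201 genes that reached 1 CPM in 2 or more libraries. Adjusted p-values are Benjamini-Hochberg values over all genes tested, and the standard error is the log2 fold change divided by the square root of F. With 2 libraries against 2, an exact two-sided permutation test could not go below p = 0.333, so none was used for single genes.

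The members, gene lists and tests were chosen with earlier results of these data known. All members were named, as were genes of the further list that were DE, the 4 others with the highest mean CPM, and the 3 genes best correlated with each DE member. *Henmt1* and *Btbd18* were matched by an older symbol. Positions are by symbol from GENCODE on GRCm38, and promoter windows from RefSeq, since the table holds no coordinates. Alternatives used TMM factors, library size alone, no filter, DESeq2 1.42.0, limma 3.58.1 on log2(CPM + 1) and log2(CPM + 0.1), a replicate block, each comparison alone, no fold threshold and each library left out. Bounds cover counting error only.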

Additional observations from a re-analysis of the deposited data

How the results depend on the processing

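With DAXX, *Stk31* and *Asz1* were both DE (2 genes) with DESeq2 (4.02% of all genes DE), limma on log2(CPM + 1) (1.82%) and the replicate block (4.7%), and 0 genes were when the 4 libraries were fitted alone (0.00758%). With WT H3.3, 1 gene (*Mael*) was DE when fitted alone (2.65%). With the mutant against the KO line, 4 genes were DE with DESeq2 (*Mael*, *Asz1*, *Tex19.1* and *Stk31*, 3.36% of all genes DE), 1 with limma on log2(CPM + 1) (*Stk31*, 1.31%), 5 with the replicate block (*Piwil2* added, 3.49%) and 0 when fitted alone (0.379%). With the mutant against WT H3.3, 2 were DE with DESeq2 (*Asz1* and *Stk31*, 2.45%) and 0 when fitted alone (0.167%). For the difference of the DAXX and WT H3.3 changes, DESeq2 called 1 (*Stk31*, 1.98%). Leaving out 1 library gave 0 to 2 members with DAXX, 0 with WT H3.3, 0 to 3 with the mutant against the KO line and 0 to 1 against WT H3.3. The cause of these moves was not tested. Replicate numbers were taken to pair libraries if same-numbered deviations correlated over 0.1 in every pair of lines. They did in 7 of 10 (-0.044 to 0.574). The exceptions were the H3.3 KO line with the *Daxx*-/-, DAXX-rescued and mutant lines, at -0.044, -0.0098 and 0.069, and the labels tie no number to a day or culture. With the replicate block, edgeR's adjusted p was 0.0147 for *Asz1* with DAXX and 0.0412, 0.0275 and 0.0383 for *Piwil2*, *Mael* and *Tex19.1* with the mutant against the KO line. DE calls over all genes ran from 1 to 1091 with DAXX, 2 to 350 with WT H3.3, 2 to 461 with the mutant against the KO line and 0 to 323 against WT H3.3 under these settings, beside 143, 33, 104 and 68.

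Log2 fold changes that crossed 0 when 1 library was left out, none of them called, had these ranges. With DAXX they were *Piwil2* -1.19 to 0.49, *Tdrd1* -0.24 to 1.77, *Tdrd9* -2.01 to 0.83, *Mov10l1* -1.43 to 0.22 and *Tex19.1* -0.56 to 0.44. With WT H3.3 they were *Piwil2* -0.76 to 0.12, *Tdrd9* -0.94 to 0.16, *Mov10l1* -0.20 to 0.06 and *Ddx4* -0.65 to 0.19. With the mutant against the KO line it was *Tdrd1* -1.36 to 0.45. For the difference of the DAXX and WT H3.3 changes they were *Piwil2* -0.94 to 0.74, *Mael* -0.13 to 1.11, *Tdrd1* -0.93 to 1.07, *Tdrd9* -1.52 to 1.32, *Mov10l1* -1.37 to 0.28 and *Asz1* -1.44 to 0.14. For the difference of the DAXX and mutant changes they were *Tdrd1* -0.06 to 1.94, *Tdrd9* -0.05 to 2.79, *Mov10l1* -0.36 to 1.44 and *Pld6* -0.77 to 0.27. With limma on log2(CPM + 1) and log2(CPM + 0.1) the first difference for *Tdrd1* was 0.02 and 0.06, and on log2(CPM + 1) the second for *Asz1* was -0.52. Of the values of single genes under an alternative, 713 kept direction and call, 16 gained and 21 lost the call, and 30 changed sign. Counting error bears most on *Asz1*, *Tdrd1* and *Tdrd9*, which were below 1 CPM in some libraries.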

Other observations

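*Gpat2*, *Tex19.2*, *Gtsf1*, *Tdrd7* and *Tex15* were chosen after their values were seen, as the genes of the further list that DESeq2 called in a comparison of the mutant while edgeR did not. *Gpat2*, which encodes a mitochondrial protein needed for piRNA production, was at 19.3 and 35.0 CPM in H3.3 KO mESCs, at 13.2 and 22.5 CPM with WT H3.3 and at 1.21 and 6.51 CPM with L126A-L130A. The log2 fold change of the mutant against the KO line was -2.78 with a standard error of 0.60 (edgeR, adjusted p = 0.0682). *Tex19.2*, the paralog of *Tex19.1*, was at 4.59 and 3.47 CPM in H3.3 KO mESCs, at 4.57 and 5.98 CPM with WT H3.3 and at 0.472 and 1.31 CPM with the mutant. Against WT H3.3 its log2 fold change was -2.53 with a standard error of 0.53 (edgeR, adjusted p = 0.0934). *Gtsf1*, whose product is a cofactor of Piwi proteins, was at 3.11 and 5.22 CPM with WT H3.3 and at 0.539 and 1.20 CPM with the mutant. Its log2 fold change was -2.23 with a standard error of 0.58 (edgeR, adjusted p = 0.144). In *Daxx*-/- mESCs *Gtsf1* was at 12.3 and 22.1 CPM, above 2.92 and 4.88 CPM in the DAXX-rescued libraries, with a log2 fold change of -2.14 and a standard error of 0.53 (edgeR, adjusted p = 0.0759). *Tdrd7*, a Tudor gene, was at 3.06 and 5.52 CPM in H3.3 KO mESCs and at 0.809 and 0.821 CPM with the mutant, a log2 fold change of -2.38 with a standard error of 0.59 (edgeR, adjusted p = 0.0923). *Tex15* went the other way against WT H3.3, from 10.6 and 8.53 CPM to 18.3 and 20.3 CPM with the mutant, a log2 fold change of 1.01 with a standard error of 0.19 (edgeR, adjusted p = 0.0712). The mutant libraries overlapped those of the compared line for none of the 5 genes in the mutant comparisons given. Since the genes were chosen by calls in these same comparisons, this adds no support. Of all genes tested, 24.2% were lower without overlap with the mutant against the KO line, and 23.2% against WT H3.3.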
